A study of Mus musculus with 6 samples.

Results

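Transcripts of kidney macrophages were described through 10 genes, chosen by name as markers of resident and recruited mononuclear phagocytes without the class II antigen presentation genes: Lyz2, Mpeg1, C1qa, C1qb, C1qc, Csf1r, Cd68, Ctss, Tyrobp and Laptm5. All 10 were found among the 24346 gene symbols measured. The libraries were made from whole kidneys of C57BL/6 mice, 3 labelled with the surgery IVCC and 3 with Sham, in a series on renal congestion. The labels spell out neither IVCC nor the age, sex or time after surgery, and give no animal for a replicate, so the spread behind each p-value is that among these libraries and may be technical.

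Macrophages and their relatives, the monocytes and dendritic cells, lie in the interstitium between the kidney tubules, where they clear debris and microbes and present antigen. Their survival depends on the receptor encoded by Csf1r, which binds the growth factors CSF1 and IL-34. They are the main source of the 3 chains of C1q, the recognition unit that starts the classical complement pathway. Their surface receptors for lipids, debris and pathogens signal through small adaptors such as TYROBP, and what they engulf is broken down in lysosomes rich in cathepsins.

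Expression was given as FPKM, which scales fragments by transcript length and by the mapped fragments of the library. True depth was not measured. Taken from the spacing of low values, nominal depth was 8200000 to 9120000 reads per IVCC library and 6120000 to 7160000 reads per Sham library, so the IVCC libraries were nominally deeper than every Sham library. Tubule markers that define kidney were present in all libraries, with Slc34a1, Lrp2, Cubn, Umod, Slc12a1, Slc12a3 and Aqp2 between 38.5 and 2576 FPKM. Of 11 defining macrophage markers other than the 10 genes, such as Adgre1 (F4/80), Aif1 and Spi1, 6 reached a mean of 1 FPKM and 0 were at 0 in all libraries. Their summed level was 18.2 to 25.7 FPKM in IVCC and 14.0 to 16.3 FPKM in Sham.

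Of the 10 macrophage genes, 9 had a higher and 1, Csf1r, a lower mean in IVCC than in Sham. Lyz2 and Mpeg1 had the largest differences. The median log2 fold change of the 10 was 0.35 on the log2(FPKM + 1) scale, beside -0.01 over the 12090 genes averaging 1 FPKM or more, of which 48.4% were higher. Over the 5532 genes whose mean lay within that of the 10, 3.57 to 22.0 FPKM, the median was 0.02 and 56.1% were higher. None of the 10 passed the test across all genes (limma, Benjamini-Hochberg adjusted p = 0.905 to 0.930), and no gene of the 12090 did (0% called, smallest adjusted p = 0.790). Of all tested genes, 205 were higher and 226 lower at an unadjusted limma p under 0.05, and 276 and 85 with TPM scaling, which moved the median of all genes to 0.15. At that unadjusted threshold 5 of the 10, Lyz2, Mpeg1, C1qb, C1qc and Ctss, were higher, against 1.7% of all genes, and Csf1r was lower, against 1.87%. The 10 were chosen with earlier results of these data known, so counts of them beside all genes are description, not a test. The 3 IVCC values lay above the 3 Sham values for 4 of the 10, Lyz2, Mpeg1, C1qc and Cd68, against 4.09% of all genes. The groups overlapped for Cd68 with TPM, median ratio or quantile scaling, and did not for Lyz2, Mpeg1 and C1qc. The count of 5 was 2 without IVCC replicate 2, which left Lyz2 and Mpeg1, and it was 3 without Sham replicate 2. With any single library left out, Lyz2 and Mpeg1 kept an unadjusted p under 0.05, and each of the other 4, Csf1r included, lost it in some case. The count of 4 was 7 without IVCC replicate 1 or without Sham replicate 3. In whole tissue, fewer or more cells of a type cannot be told apart from less or more RNA per cell. The part of the nominal depth in these differences was not tested.

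**Figure D1:**
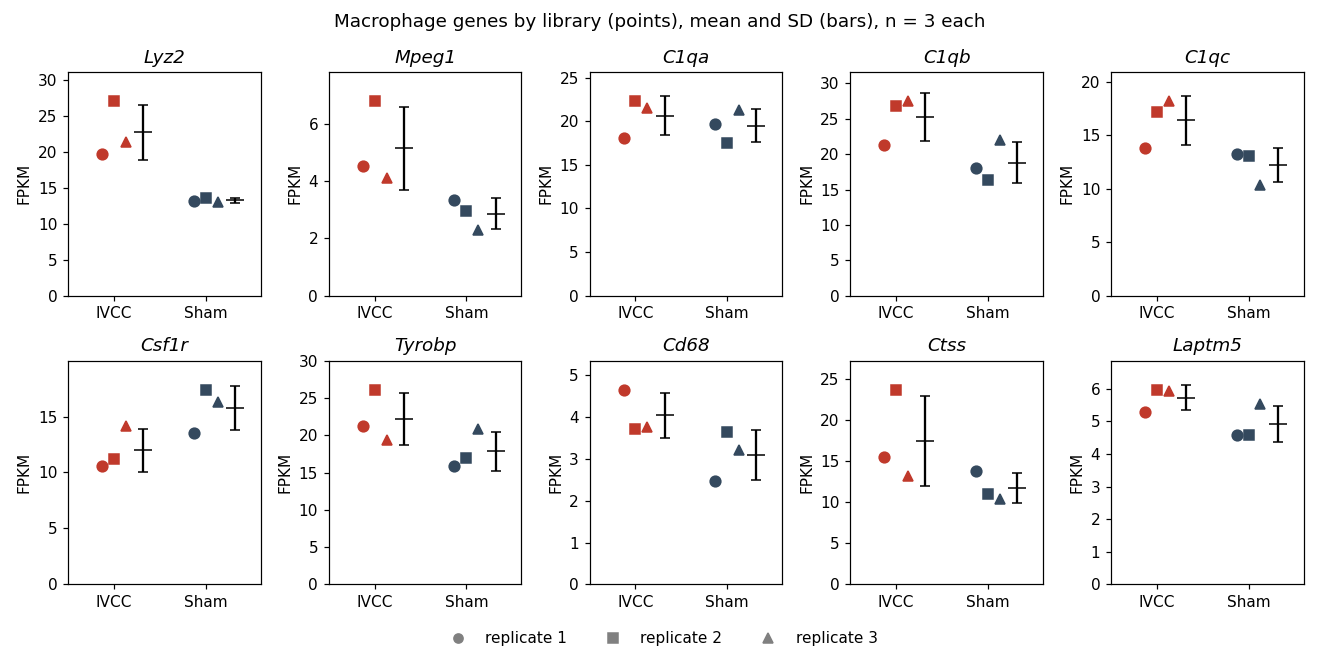
FPKM of each macrophage gene (vertical axes from 0) in the 3 IVCC libraries on the left and the 3 Sham libraries on the right, with symbols for the replicate numbers and bars for the mean and SD. The groups lie apart for Lyz2, Mpeg1, C1qc and Cd68, and Csf1r is the only gene whose mean is lower in IVCC.

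The transcription factor PU.1, encoded by Spi1, is required for macrophage development and binds purine-rich sites, so the promoters of the 10 genes were searched for its core, GAGGAAG, on both strands. RefSeq windows of 300 bases, 250 before and 50 after a gene's start, were matched for 7 of the 10: Lyz2, Mpeg1, C1qb, C1qc, Cd68, Ctss and Laptm5. The core was in 3 of these 7 windows and in 13.6% of all 32851 windows of that length. Each match follows with 20 bases on either side, on the strand of the gene and in GRCm38.p6. The capitals mark the core, which reads as its reverse complement because all 3 matches are on the opposite strand.
C1qc, chr4:136893082-136893128, minus strand: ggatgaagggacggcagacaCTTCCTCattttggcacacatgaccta
Ctss, chr3:95526765-95526811, plus strand: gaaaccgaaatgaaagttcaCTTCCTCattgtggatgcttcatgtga
Laptm5, chr4:130913257-130913303, plus strand: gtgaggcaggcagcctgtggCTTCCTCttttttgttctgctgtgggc
The core begins 194 bases before the RefSeq start of C1qc, 1 base before that of Ctss and 39 bases before that of Laptm5. The starts of the GENCODE gene models differ for C1qc, where the core lies 43 bases before the start, and for Laptm5, where it lies 152 bases after it. The AP-1 motif TGANTCA was in 1 of the 7 windows, that of Cd68, where it was found at 2 positions, and in 7.81% of all windows. The RUNX motif TGTGGT was in 2 windows, those of Lyz2 and C1qc, and in 16.8% of all windows. A match describes letters in the window, not a site in use, and binding was not measured.

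Among the antimicrobial genes, Lyz2 encodes the lysozyme of myeloid cells, which cuts bacterial cell walls. It had 19.7, 27.1 and 21.4 FPKM in IVCC kidneys, against 13.2, 13.6 and 12.97 FPKM in Sham kidneys. The Sham values were nearly the same, the lowest IVCC value stood well above them, and IVCC replicate 2 was the highest. The log2 fold change was 0.72 (95% interval 0.41 to 1.04, limma unadjusted p = 0.000787, adjusted p = 0.905), and the gene was in position 9 of 12090 by p. Lyz2 (chromosome 10, 117277331 to 117282321, minus strand, GRCm38) lies 5475 bases from its paralog Lyz1, the lysozyme of Paneth cells in the gut. Lyz1 had 3.54, 3.76 and 2.87 FPKM in IVCC and 1.48, 1.82 and 2.61 FPKM in Sham, again without overlap, at a log2 fold change of 0.58 (limma unadjusted p = 0.0126, adjusted p = 0.924). Of the 75-base stretches of Lyz2 transcripts, 5.96% also occur in Lyz1, so reads of 75 bases can be split between the pair and the low Lyz1 level in particular is uncertain. The ratio of Lyz2 to Lyz1 FPKM was 5.58, 7.21 and 7.47 in IVCC and 8.94, 7.47 and 4.98 in Sham, and the groups overlapped.

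Mpeg1 encodes perforin-2, a pore-forming protein that macrophages turn on engulfed bacteria. It had 4.53, 6.79 and 4.09 FPKM in IVCC kidneys, against 3.33, 2.97 and 2.28 FPKM in Sham kidneys, and IVCC replicate 2 was far above the other libraries. The ratio of the means, 1.80, was the highest of the 10. The added 1 FPKM shrinks differences at such low levels, and the log2 fold change was 0.65 (95% interval 0.20 to 1.11, limma unadjusted p = 0.0110, adjusted p = 0.924), and it was 0.47 without IVCC replicate 2.

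The 3 C1q genes lie side by side on the minus strand of chromosome 4 (GRCm38), C1qb at 136880129 to 136886187, C1qc at 136889804 to 136893065 and C1qa at 136895917 to 136898803, with 3616 bases between C1qb and C1qc and 2851 bases between C1qc and C1qa. The protein is assembled from equal numbers of A, B and C chains. C1qb had 21.3, 26.8 and 27.5 FPKM in IVCC kidneys, against 18.1, 16.3 and 22.0 FPKM in Sham kidneys, so that IVCC replicate 1 fell just below Sham replicate 3. C1qc had 13.8, 17.1 and 18.2 FPKM in IVCC kidneys, against 13.2, 13.02 and 10.3 FPKM in Sham kidneys, with IVCC replicate 1 again the lowest of its group and close to the Sham values. Their log2 fold changes were alike, 0.41 for C1qb (95% interval 0.05 to 0.76) and 0.40 for C1qc (95% interval 0.05 to 0.74), each with an unadjusted limma p of 0.029 and an adjusted p of 0.924. C1qa had 18.1, 22.3 and 21.6 FPKM in IVCC kidneys, against 19.6, 17.5 and 21.3 FPKM in Sham kidneys. The groups were interleaved for C1qa, and its log2 fold change of 0.08 had a 95% interval of -0.22 to 0.38, whose upper end lies just under the fold changes of the other chains. The chains were also set against each other within each library. The ratio of C1qa to C1qb FPKM was 0.848, 0.833 and 0.783 in IVCC and 1.08, 1.07 and 0.969 in Sham, without overlap. The ratio of C1qa to C1qc was 1.31, 1.30 and 1.19 in IVCC and 1.48, 1.34 and 2.06 in Sham, also without overlap, and the ratio of C1qb to C1qc overlapped, at 1.51 to 1.57 in IVCC and 1.25 to 2.13 in Sham. The gap between groups was narrow for C1qa to C1qc, 1.31 in IVCC against 1.34 in Sham. These ratios were not tested, and how often ratios of other gene pairs lie apart was not computed.

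C1q acts with the proteases C1r and C1s, which are made largely by other cells. C1s1 had 6.74, 7.60 and 7.05 FPKM in IVCC and 5.77, 5.56 and 3.72 FPKM in Sham, a log2 fold change of 0.45 with no overlap (limma unadjusted p = 0.0246, adjusted p = 0.924). C1ra had 4.30, 4.66 and 3.56 FPKM in IVCC and 3.66, 4.15 and 2.60 FPKM in Sham, with overlap and a log2 fold change of 0.22. Without Sham replicate 3 the log2 fold changes were 0.29 for C1s1 and 0.07 for C1ra.

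Csf1r, the growth factor receptor of the lineage, differed in direction from the other 9 genes. It had 10.6, 11.2 and 14.1 FPKM in IVCC kidneys, against 13.6, 17.4 and 16.3 FPKM in Sham kidneys. IVCC replicate 3 lay above Sham replicate 1, and the other IVCC values lay below all Sham values. The log2 fold change was -0.37 (95% interval -0.71 to -0.03, limma unadjusted p = 0.0371, adjusted p = 0.924), and it stayed negative under every setting tried, between -0.49 and -0.21. Csf1r had the most nominal reads of the 10 genes, 354 to 526 per library, for which counting error alone gives a coefficient of variation of 4.83%. The gene overlaps Hmgxb3 on the opposite strand over 873 bases of the annotation, and whether counting used strand is not given in the sources used here. Of its ligands, Il34, made by tubule cells, had 15.1, 10.99 and 14.2 FPKM in IVCC and 15.4, 10.5 and 14.7 FPKM in Sham. Csf1 had 1.73, 2.42 and 2.36 FPKM in IVCC and 1.96, 2.23 and 1.37 FPKM in Sham. Both ligands overlapped between groups, with log2 fold changes of -0.005 for Il34 (95% interval -0.42 to 0.41) and 0.16 for Csf1 (95% interval -0.25 to 0.56). The sign changed in some settings for both, and Csf1 was at 0.03 without Sham replicate 3 and 0.26 without IVCC replicate 1.

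Relative to Csf1r in the same library, 8 of the other 9 genes lay higher in all 3 IVCC libraries than in all 3 Sham libraries, beside 20.1% of all other tested genes on the same ratio. Since Csf1r itself was lower in IVCC, dividing by it raises the IVCC ratio of a gene whose own level does not differ. The ratio of Lyz2 to Csf1r FPKM was 1.87, 2.41 and 1.52 in IVCC and 0.972, 0.784 and 0.798 in Sham. That of C1qa was 1.71, 1.99 and 1.53 in IVCC and 1.45, 1.01 and 1.31 in Sham. The exception was Ctss, at 0.933 to 2.11 in IVCC and 0.634 to 1.02 in Sham. Relative to Ptprc (CD45), a surface phosphatase of all white blood cells, the groups lay apart for 1 of the 10 genes, Mpeg1, beside 0.108% of all other tested genes that were higher on this ratio and 8.88% that were lower, at 1.91 to 2.49 in IVCC and 1.58 to 1.88 in Sham. Ptprc itself had 1.82, 3.55 and 1.74 FPKM in IVCC and 1.77, 1.88 and 1.24 FPKM in Sham, and its high value in IVCC replicate 2 lowers all ratios of that library.

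**Figure D2:**
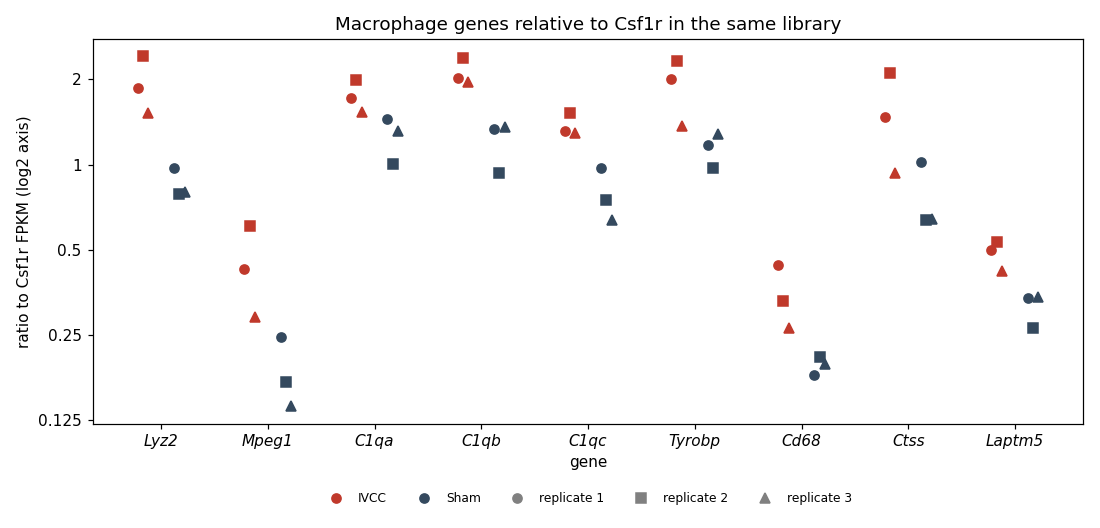
FPKM of 9 macrophage genes divided by the FPKM of Csf1r in the same library (log2 axis), with IVCC libraries to the left of Sham libraries for each gene and symbols for replicate numbers. The groups lie apart for 8 of the 9 genes, beside 20.1% of all tested genes on this ratio, and overlap for Ctss.

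Tyrobp encodes the adaptor TYROBP (DAP12), which passes signals from receptors such as TREM2 to the kinase SYK. It had 21.2, 26.1 and 19.4 FPKM in IVCC kidneys, against 15.8, 16.9 and 20.8 FPKM in Sham kidneys. Sham replicate 3 lay above IVCC replicate 3, so the groups overlapped, and the log2 fold change of 0.30 (95% interval -0.06 to 0.65) was 0.18 without IVCC replicate 2. The related adaptor gene Fcer1g, which serves Fc receptors, had 10.7, 14.8 and 14.2 FPKM in IVCC and 10.7, 11.3 and 12.6 FPKM in Sham, a log2 fold change of 0.17 with overlap, which was 0.31 without IVCC replicate 1 and 0.09 without IVCC replicate 2. Trem2 and Syk stayed below the filter. Trem2 had 0.683, 0 and 0.123 FPKM in IVCC and 0.161, 0.156 and 0 FPKM in Sham, and Syk had 0.222 to 0.575 FPKM in IVCC and 0.281 to 0.364 FPKM in Sham.

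Of the lysosomal genes, Ctss encodes cathepsin S, a protease that processes antigens for class II presentation. It had 15.5, 23.7 and 13.2 FPKM in IVCC kidneys, against 13.8, 11.03 and 10.4 FPKM in Sham kidneys. Ctss was the most variable of the 10 genes in IVCC, with a coefficient of variation of 31.5%, and its log2 fold change of 0.50 (95% interval 0.003 to 1.001) was 0.27 without IVCC replicate 2. An annotated pseudogene of Hmgb1 overlaps the Ctss gene on the same strand over 557 bases. Cd68, a heavily glycosylated membrane protein of late endosomes and lysosomes, had 4.64, 3.71 and 3.75 FPKM in IVCC kidneys, against 2.46, 3.63 and 3.20 FPKM in Sham kidneys. The gap between the groups was narrow for Cd68, with IVCC replicate 2 just above Sham replicate 2, and its values rest on 16 to 35 nominal reads per library. Its log2 fold change of 0.30 (95% interval -0.06 to 0.66) was 0.18 without Sham replicate 1. Laptm5, a lysosomal membrane protein of blood cells that limits receptor signalling, had 5.29, 5.97 and 5.93 FPKM in IVCC kidneys, against 4.60, 4.59 and 5.55 FPKM in Sham kidneys. IVCC replicate 1 lay below Sham replicate 3, and the log2 fold change was 0.19 (95% interval -0.10 to 0.47).

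Lysosomal genes that most kidney cells use were described beside these. Of 20 such genes 11 were higher and 9 lower, with a median log2 fold change of 0.02, and 0 of 20 were past an unadjusted p of 0.05. Hexa, which encodes a lysosomal enzyme subunit, had 31.9 to 35.7 FPKM in IVCC and 21.1 to 34.02 FPKM in Sham. The cathepsin gene Ctsh had 172.2 to 212.2 FPKM in IVCC and 199.8 to 291.2 FPKM in Sham.

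Among the libraries, IVCC replicate 2 was the highest of all 6 for 6 of the 10 genes, IVCC replicate 3 for 2, and IVCC replicate 1 and Sham replicate 2 for 1 each, Cd68 and Csf1r. Sham replicate 3 was the lowest for 4 genes, Sham replicate 2 for 3, Sham replicate 1 for 2 and IVCC replicate 1 for 1, Csf1r. The median deviation of the 10 genes from their means over the 6 libraries, on the log2(FPKM + 1) scale, was 0.05, 0.28 and 0.09 in IVCC replicates 1 to 3 and -0.16, -0.20 and -0.04 in Sham replicates 1 to 3. All 3 IVCC medians were above all 3 Sham medians, but the genes were not alike within a library. In IVCC replicate 1 Cd68, Mpeg1, Lyz2, Ctss and Tyrobp were above their means, whereas Csf1r was 0.34 and C1qa 0.14 below. In Sham replicate 3 Mpeg1, C1qc and Ctss were 0.55, 0.41 and 0.40 below their means, whereas Csf1r, Tyrobp, C1qa, Laptm5 and C1qb were above theirs.

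**Figure D3:**
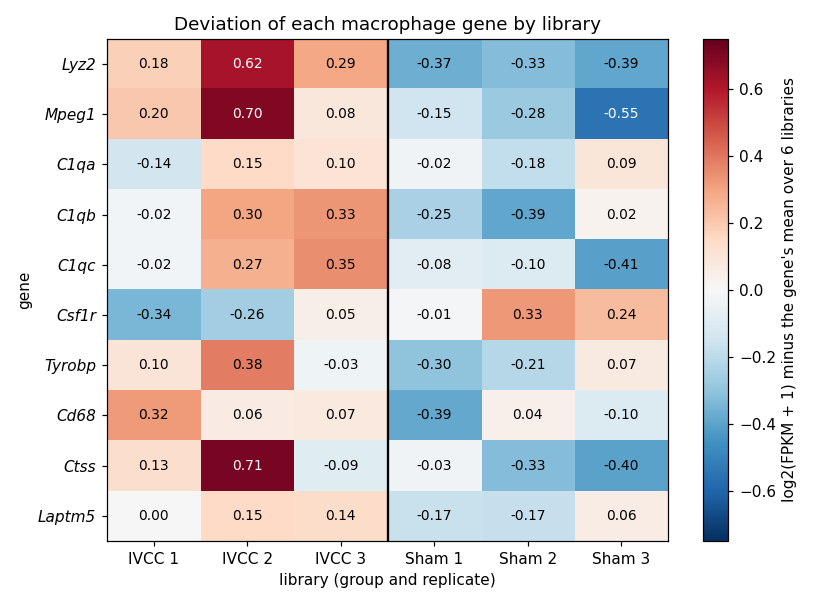
Deviation of log2(FPKM + 1) from each gene's mean over 6 libraries, with genes as rows and libraries as columns, IVCC left of the line and Sham right of it. Red is above and blue below the mean; IVCC replicate 2 is the highest library for 6 genes, and Csf1r is lowest in IVCC replicate 1.

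The order of levels, compared per length as FPKM, also differed between groups. In IVCC it ran from C1qb (25.2 ± 3.38 FPKM, SD, n = 3) through Lyz2 (22.8 ± 3.84), Tyrobp (22.2 ± 3.47), C1qa (20.6 ± 2.26), Ctss (17.5 ± 5.51), C1qc (16.4 ± 2.27) and Csf1r (11.97 ± 1.89) to Laptm5 (5.73 ± 0.384), Mpeg1 (5.14 ± 1.45) and Cd68 (4.03 ± 0.530). In Sham it ran from C1qa (19.5 ± 1.92 FPKM, SD, n = 3) through C1qb (18.8 ± 2.92), Tyrobp (17.9 ± 2.62), Csf1r (15.7 ± 1.96), Lyz2 (13.3 ± 0.331), C1qc (12.2 ± 1.61) and Ctss (11.8 ± 1.81) to Laptm5 (4.91 ± 0.551), Cd68 (3.10 ± 0.596) and Mpeg1 (2.86 ± 0.536). Csf1r stood in position 7 in IVCC and in position 4 in Sham. Neighbours in these orders overlapped in their ranges, apart from Csf1r and Laptm5 in IVCC and, in Sham, Ctss and Laptm5, and Laptm5 and Cd68.

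Other macrophage and monocyte genes, taken as a list that was chosen with earlier results of these data known, were mostly higher in IVCC as well. Of 41, 24 reached a mean of 1 FPKM, and of these 21 were higher and 3 lower in IVCC, with a median log2 fold change of 0.25 and 0 called. The groups lay apart with IVCC higher for 5, Spi1, Clec7a, Unc93b1, Sirpa and Pld4, and with IVCC lower for 1, Folr2, beside 4.09% and 4.22% of all genes. Spi1, which encodes PU.1, had 1.93, 1.97 and 2.41 FPKM in IVCC and 1.64, 0.979 and 1.44 FPKM in Sham, a log2 fold change of 0.41 (limma unadjusted p = 0.0393, adjusted p = 0.924). Unc93b1, which carries Toll-like receptors to endosomes, had 9.40, 10.7 and 10.1 FPKM in IVCC and 7.39, 7.26 and 8.81 FPKM in Sham. Clec7a, the fungal glucan receptor dectin-1, had 1.31, 1.93 and 1.12 FPKM in IVCC and 0.684, 0.996 and 0.753 FPKM in Sham. Ms4a6c, a membrane protein of monocytes, had 2.10 to 2.73 FPKM in IVCC and 1.21 to 2.202 FPKM in Sham. Folr2, a folate receptor of tissue-resident macrophages, was lower, as Csf1r was, at 1.39, 2.15 and 2.37 FPKM in IVCC and 3.75, 2.68 and 2.61 FPKM in Sham (log2 fold change -0.44, limma unadjusted p = 0.0482, adjusted p = 0.924). Adgre1, which encodes F4/80, had 1.63, 2.19 and 0.998 FPKM in IVCC and 0.747, 1.04 and 0.960 FPKM in Sham, with overlap. Of the 17 genes below the filter, 4 lay higher without overlap, Mrc1, Ncf1, Slc11a1 and Tlr7, and 0 lower. As a background, 807 of all 24346 genes lay higher without overlap when no filter was used, and 495 of these were among the 12090 that pass it. Timd4, a receptor of resident macrophages, was listed at 0 in all 6 libraries.

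Markers of blood monocytes and the ligands that draw them were mostly low. Of 12 monocyte genes 4 were tested, 2 higher and 2 lower. The groups lay apart for 1 of the 4, beside 4.09% of all genes that were higher. It was Fn1, fibronectin, which fibroblasts also make, at 4.49, 4.20 and 4.07 FPKM in IVCC and 3.04, 2.64 and 1.51 FPKM in Sham. Ccr2, the receptor for monocyte-attracting chemokines, had 2.10, 2.73 and 1.70 FPKM in IVCC and 1.89, 1.75 and 1.68 FPKM in Sham, with overlap. Plac8 had 22.2 to 33.96 FPKM in IVCC and 26.1 to 38.8 FPKM in Sham. Ly6c2, a surface marker of inflammatory monocytes, stayed below the filter and was singled out after its values were seen, at 2.03, 0.787 and 1.10 FPKM in IVCC and 0.478, 0.232 and 0.273 FPKM in Sham. Vcan, the proteoglycan versican, was the other monocyte gene below the filter without overlap and was lower, at 0.093, 0.113 and 0.105 FPKM in IVCC and 0.240, 0.434 and 0.118 FPKM in Sham. When no filter was used, 807 of all 24346 genes were higher and 673 lower without overlap, and 495 and 510 of these pass it. Of 12 attractants 5 were tested, 4 higher and 1 lower, with a median log2 fold change of 0.19. The CCR2 ligand gene Ccl2 had 1.21, 1.56 and 1.63 FPKM in IVCC and 1.18, 1.152 and 0 FPKM in Sham. Ccl5 had 3.35 to 5.06 FPKM in IVCC and 2.01 to 3.84 FPKM in Sham, and the CX3CR1 ligand gene Cx3cl1 19.96 to 24.1 and 17.5 to 20.7 FPKM. Ccl12, another CCR2 ligand below the filter and also singled out after its values were seen, had 1.10, 0.712 and 0.660 FPKM in IVCC and was listed at 0 in all Sham libraries.

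Genes shared by most white blood cells were higher for 11 of 12 tested and lower for 1, with a median log2 fold change of 0.26. The groups lay apart for 5 of the 12, Cd52, Lsp1, Rac2, Lcp1 and Cd53, all higher in IVCC, beside 4.09% of all genes. Cd52, a small glycoprotein of lymphocytes and myeloid cells, had 30.7, 23.7 and 26.4 FPKM in IVCC and 18.7, 19.1 and 20.3 FPKM in Sham, a log2 fold change of 0.45 (limma unadjusted p = 0.00698, adjusted p = 0.924). The summed level of the 16 listed genes was 78.5 to 86.2 FPKM in IVCC and 63.7 to 72.0 FPKM in Sham. Inflammatory and repair state genes were mostly below the filter, with 2 of 15 tested, Tgfb1 and Spp1, at log2 fold changes of 0.04 and 0.02. Nos2, Tnf and Il6, genes of the inflammatory state, did not exceed 0.259 FPKM in any library, and Arg1, a repair state gene, did not exceed 0.184 FPKM. Il1b and Cd86 had higher means in IVCC and overlapped. Il1b had 0.484 to 1.147 FPKM in IVCC and 0.492 to 0.869 FPKM in Sham, and Cd86 0.697 to 0.880 and 0.365 to 0.834 FPKM. Il6, Il12b and Arg1 had lower means in IVCC, 0.087, 0.116 and 0.061 FPKM against 0.106, 0.145 and 0.079 FPKM in Sham, also with overlap. Of the 13 genes of the list below the filter, 1 lay apart, Cd80, at 0.081, 0.156 and 0.145 FPKM in IVCC and 0 in all Sham libraries. As a background, 807 of all 24346 genes were higher without overlap when no filter was used, and 495 of these pass it.

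Markers of other blood cells overlapped between the groups in summed level, and their part in the results above was not tested. Neutrophil genes summed to 2.35 to 7.26 FPKM in IVCC and 3.74 to 5.10 FPKM in Sham, with Mpo, Elane, Retnlg and Ngp at 0 in all libraries, and the 2 tested, S100a8 and S100a9, had log2 fold changes of -0.23 and 0.37. T and NK cell genes summed to 6.14 to 8.06 FPKM in IVCC and 4.60 to 7.22 FPKM in Sham, with log2 fold changes of 0.14 for Cd8a and 0.04 for Nkg7. B and plasma cell genes summed to 3.21 to 4.02 FPKM in IVCC and 2.98 to 5.501 FPKM in Sham, with a log2 fold change of -0.25 for Mzb1. Dendritic cell genes had 1 of 3 tested members higher and summed to 24.6 to 35.5 FPKM in IVCC and 26.2 to 35.3 FPKM in Sham, mostly Bst2 (log2 fold change 0.03), with -0.03 for Zbtb46 and -0.05 for Cd209a. Of 4 tested mast and red cell genes 2 had higher fitted values, Kit (0.22) and Alas2 (0.25), and 2 lower, among them Hbb-b1 (-0.16), a globin gene with near-identical copies. Tubule genes were split, 6 higher and 5 lower, with a median log2 fold change of 0.02 and those of smallest p at 0.23 for Slc5a2, -0.23 for Atp6v1g3 and -0.34 for Aqp2.

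Genes of stroma, vessels and podocytes were also mostly higher in IVCC. Of 13 tested, 12 were higher and 1 lower, with a median log2 fold change of 0.52, and the groups lay apart for 8, all higher, beside 4.09% of all genes. At an unadjusted p under 0.05, 10 of the 13 were higher, beside 1.7% of all genes, among them Col3a1, Col1a2, Col1a1, Pecam1, Nphs1, Pdgfra, Pdgfrb, Podxl and Cdh5. The collagen genes Col3a1 and Col1a2 had log2 fold changes of 0.47 and 0.51. The summed level of the list was 171.0 to 208.9 FPKM in IVCC and 142.4 to 154.0 FPKM in Sham, with IVCC replicate 2 the highest, as for the macrophage genes, whose sum was 134.8 to 170.7 FPKM in IVCC and 117.0 to 125.2 FPKM in Sham. The part of this shift in the macrophage result was not tested.

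**Figure D4:**
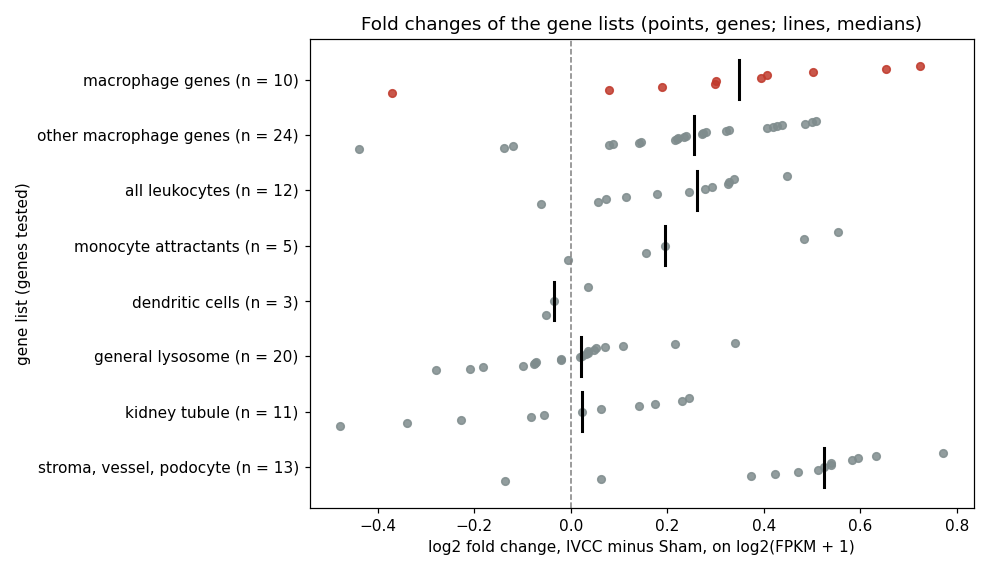
Log2 fold changes of IVCC minus Sham on the log2(FPKM + 1) scale (horizontal axis) for the tested genes of 8 lists (rows), with points for genes and vertical lines for medians. Medians are 0.35 for the 10 macrophage genes, 0.25 for other macrophage genes, 0.26 for leukocyte genes, 0.52 for stroma, vessel and podocyte genes, and 0.02 for lysosomal and tubule genes.

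The genes whose profile over the 6 libraries was most like the median deviations of the 10 genes were Sgsm2, Unc93b1, Slc2a12, Mettl1 and Slc30a2. Likeness was the root mean square difference on the log2 scale, which was 0.04 for Sgsm2 and 0.05 to 0.06 for the other 4, out of 11372 genes compared. The 10 genes themselves ranged from 0.07 for Laptm5 and 0.10 for Tyrobp to 0.28 for Mpeg1 and 0.37 for Csf1r. Unc93b1 is the only 1 of the 5 that was in a list of macrophage genes.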

How the data were processed

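RNA of 6 mouse kidney libraries, 3 IVCC and 3 Sham by their titles, was made into stranded mRNA libraries and read as single 75-base reads, per the labels' protocols. FPKM were deposited by the authors in 1 table. The submitters' processing notes name Cufflinks 2.2.1, TopHat2 2.0.13, SAMtools 0.1.19, Bowtie2 2.2.3 and the mm10 build, with no roles, and no source used here gives the annotation or filters. All 12090 genes averaging 1 FPKM or more (12256 fell below) were compared on log2(FPKM + 1) with limma 3.58.1 in R 4.3.3 (mean-variance trend, two-sided), with Benjamini-Hochberg adjustment over those genes and a threshold of 0.05. The fit was tested on simulated data. With 3 libraries against 3 the smallest exact permutation p is 0.1, so no such test was run.

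Nominal depth was the library size at which most values below 0.1 FPKM, of genes with transcripts of 1500 to 5000 bases, were whole reads within 0.1, assuming fragments of 200 bases. Only 61.5% to 66.5% were whole, so no count test was run. Gene models and transcript lengths are from GENCODE M21 (GRCm38, the assembly mm10 names), promoters from RefSeq (GRCm38.p6). A comparison of the encoded proteins had been planned and was not run.

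The members and lists were chosen with earlier results of these data known. Genes named were the 10, 8 partners, the 3 genes of smallest p and those with an unadjusted p under 0.05 in each list, and the 5 most alike in profile; genes named beyond this rule were chosen after their values were seen. Some genes that the rule names are not reported here. Alternatives were 2 pseudocounts (0.1 and 5), a filter at 5 FPKM or none, 3 scalings (TPM, median ratio, quantile), eBayes without trend or robust, a block for replicate number, leaving out single libraries, and leaving out both libraries numbered 3. Chosen after the data were seen was a spline correction for the length and GC content of transcripts, alone and with the block.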

Additional observations from a re-analysis of the deposited data

How the results depend on the processing

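All 10 macrophage genes kept the sign of their fold change under all 19 other settings in which they were tested, and none was called in any of them. The median log2 fold change of 0.35 was 0.30 to 0.42 when 1 library was left out, 0.52 with TPM scaling, which moved the median of all genes to 0.15, and 0.51 with the length and GC correction, with or without the block. The number that were higher with an unadjusted p under 0.05 was 2 to 4 when 1 library was left out. The number of the 10 that were higher without overlap was then 4 to 7. It was 2 with a filter at 5 FPKM, which removes Mpeg1 and Cd68, and 8 without the libraries numbered 3. Lyz2, Mpeg1 and C1qc were without overlap in every setting that tested them. Cd68 was so in 14 of 19, the main one included. It overlapped with each of the 3 scalings and with the length and GC correction, with or without the block. Csf1r, not in these counts, was lower without overlap when IVCC replicate 3, Sham replicate 1 or the libraries numbered 3 were left out. Its unadjusted limma p was under 0.05 in each of these settings. In the same order, 2053, 919 and 2460 of about 12090 tested genes were lower without overlap, beside 510 with all libraries. With all libraries Csf1r overlapped only through IVCC replicate 3 and Sham replicate 1, so leaving either out removes its overlap. Genes called over all genes numbered 0 to 4 when 1 library was left out, 23 without a filter, 4 without the libraries numbered 3 and 1 with the correction and the block. Genes higher at an unadjusted p under 0.05 numbered 98 to 458 when 1 library was left out, 517 without a filter, 107 with a filter at 5 FPKM, 487 without the libraries numbered 3, 772 with the replicate block and 661 with the correction and the block. Genes without overlap and higher numbered 720 to 1876 when 1 library was left out, 807 without a filter, 271 with a filter at 5 FPKM, 748 with TPM scaling and 2478 without the libraries numbered 3. Genes lower at an unadjusted p under 0.05, 226 as reported, numbered 96 to 581 when 1 library was left out, 418 without a filter, 175 with a filter at 5 FPKM, 570 without the libraries numbered 3, 1616 with the replicate block, 930 with the correction and the block, and 85 with TPM scaling, beside 276 higher. The cause was not tested, except that leaving out libraries makes overlap rarer and a filter changes how many genes are tested.

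The fold change of Csf1 was -0.018 without the libraries numbered 3. That of Il34, -0.17 to 0.12 when 1 library was left out, was 0.16 with TPM scaling, 0.0024 with quantile normalization, 0.12 without IVCC replicate 2, 0.09 without Sham replicate 1, 0.06 without Sham replicate 3, 0.015 without the libraries numbered 3 and 0.086 with the length and GC correction, with or without the block. Residuals of same-numbered libraries correlated at -0.11, 0.34 and 0.32 over genes, for numbers 1 to 3. Those of IVCC replicate 2 and Sham replicate 3 correlated at -0.37, and those of IVCC replicate 3 and Sham replicate 2 at -0.36. The libraries numbered 1 did not correlate best with each other. Whether the numbers mark pairs of libraries was not tested. With the replicate block 5 of the 10 genes had an unadjusted p under 0.05 and were higher, as without it. Their adjusted limma p was smaller with the block than without it. It was 0.0775 for Lyz2, 0.110 for Mpeg1, 0.132 for C1qb and 0.134 for Csf1r, and up to 0.708, for C1qa. Depth limits Cd68 and Tyrobp most, at 16 to 35 and 40 to 81 nominal reads per library.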
